A study of Sus scrofa with 8 samples.

Results

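The ADAM family of the pig was followed through H3K27ac, acetylation of histone H3 at lysine 27, a mark of active promoters and enhancers. The family was taken as all protein-coding genes on chromosomes 1 to 18 whose RefSeq symbol begins with ADAM. That rule gave 43 members, out of 16298 named protein-coding genes measured on those chromosomes and X. They were 19 ADAM genes including ADAMDEC1, 19 ADAMTS genes and 5 ADAMTSL genes. The members were thus chosen by symbol and chromosome and no measured value entered the rule, but the family was taken up with earlier results of these data known.

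The 2 cell types were pgEpiSC, pig epiblast stem cells of the stage before gastrulation taken from the epiblast at embryonic day 10, and pEF, pig fibroblasts from fetuses at embryonic day 30. Each type had 2 H3K27ac libraries, numbered 1 and 4 for pgEpiSC and 1 and 2 for pEF, and an input library for each of them. Genotype, breed, sex and treatment are not given in the labels, nor is it said whether the libraries of a type came from separate lines, animals or cultures. The p-values below therefore measure only the spread between these libraries, which may be technical. In cell populations of this kind, fewer cells with the mark and less mark per cell cannot be told apart.

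ADAM proteins sit in the cell membrane, where their metalloprotease domain cuts the outer part off growth factor precursors, cytokines, adhesion molecules and receptors such as Notch, and a disintegrin domain binds integrins. Several members have lost the zinc-binding motif and act in adhesion, among neurons or between sperm and egg. ADAMTS proteins are secreted into the matrix, where they trim procollagens, cut large proteoglycans such as aggrecan and versican, or cut von Willebrand factor. ADAMTSL proteins share their matrix-binding domains but have no protease domain, so the family is not made of proteases alone. Fibroblasts are a main source of the collagen and microfibril matrix on which many ADAMTS enzymes act, and Notch and EGF-type ligands cut by ADAM10 and ADAM17 signal in the early embryo.

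The authors deposited islands, stretches enriched for the mark. The measure used for a gene was its acetylated length, the kilobases (kb) that islands cover within a window of the gene body plus 10 kb beyond each of its ends. Another named gene lay at least partly in the windows of 21 members. pgEpiSC 1 and pgEpiSC 4 had 64620 and 74208 islands holding 29679982 and 38230571 ChIP reads, against 62261 and 57790 islands holding 42444995 and 46383051 ChIP reads in pEF 1 and pEF 2. Islands covered more of the genome in pgEpiSC and were weaker there: 408 and 414 Mb at a median of 1.80-fold and 1.67-fold over input in pgEpiSC, against 273 and 275 Mb at 3.47-fold and 3.46-fold in pEF. For that reason each call below was also made on islands of at least 2-fold over input, and after centring each library on its median gene. The 2-fold cut was uneven: it kept 37.1% and 27.8% of islands in pgEpiSC, against 84.7% and 85.6% in pEF. It therefore shortened pgEpiSC more, and a pEF call that held or appeared at this cut is not independent support. All 6 epiblast markers examined were longer in pgEpiSC, and 4 of 6 fibroblast markers were longer in pEF, with PRRX1 and THY1 not past the threshold. Among markers of other cell types, no island in any library was found at KDR (endothelial), CD48 (blood), MYOD1 (muscle), KRT5 (keratinocyte) and SOX1 (neural). By the test, 2 of 4 endothelial, 1 of 4 blood, 1 of 4 muscle and 1 of 3 keratinocyte markers were longer in pgEpiSC and none was longer in pEF. Their part in the results was not tested.

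Summed over the members' windows, the mark covered less in pgEpiSC than in pEF, which was the opposite of the order over all genes. Islands covered 14.3% and 14.6% of the summed ADAM windows in pgEpiSC, against 22.2% and 20.7% in pEF. Over the windows of all genes these shares were 23.1% and 24.0% in pgEpiSC, against 15.5% and 15.4% in pEF. ADAM12 held a large part of the difference: without it, the ADAM windows were covered to 14.99% and 15.3% in pgEpiSC, against 18.3% and 16.4% in pEF. ADAMTSL3 added to the difference as well, with no island in pgEpiSC against 188 and 107 kb in pEF. The shares without both genes were not computed. The median member differed little, at 14.9 and 14.6 kb in pgEpiSC, against 15.2 and 16.8 kb in pEF. The number of members with any island was alike, 35 and 37 in pgEpiSC and 37 and 36 in pEF. ADAM5, ADAM29 and ADAM30 had no island in any library. In both pgEpiSC libraries the longest acetylated member was ADAMTS17, with 126 and 138 kb, and in both pEF libraries it was ADAM12, with 337 and 351 kb. Enrichment over input at the members was a median of 1.91-fold and 1.89-fold in pgEpiSC, against 5.64-fold and 5.20-fold in pEF.

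**Figure D1:**
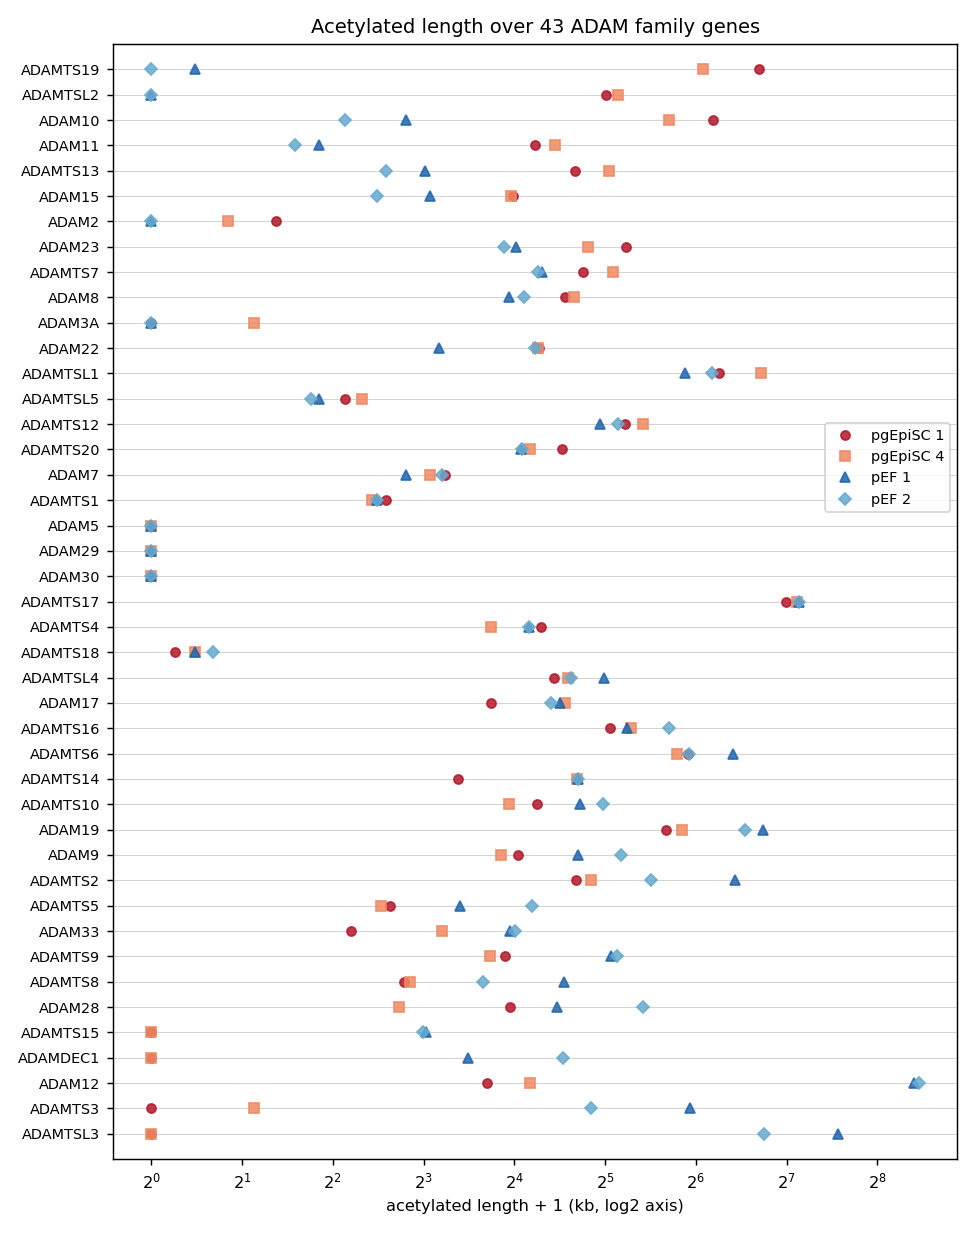
Acetylated length of the ADAM family members in each H3K27ac library, in kb covered by islands within the window of each gene, with pgEpiSC libraries and pEF libraries as separate points. ADAMTSL3 and ADAM12 lie far to the side of pEF, and ADAMTS19, ADAMTSL2 and ADAM10 far to the side of pgEpiSC.

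In limma on log2(kb + 1) across all 16298 genes, with Benjamini-Hochberg adjustment and a threshold of 0.05, 9 members were longer in pgEpiSC, 9 were longer in pEF and 25 did not pass. The share of all genes called was 31.9% for longer in pgEpiSC and 10.9% for longer in pEF. The counts in smaller groups of members below stand against these same shares. The median log2 difference, pgEpiSC over pEF, was -0.08 for the 43 members and 0.46 for all genes. On islands of at least 2-fold, 2 members were longer in pgEpiSC and 17 in pEF, where 7.07% and 16.5% of all genes were called, with medians of -1.39 for members and -0.28 for all genes. In the gene body alone 8 were longer in pgEpiSC and 8 in pEF, where 24.0% and 9.44% of all genes were called. After centring, 5 of 40 members were longer in pgEpiSC and 18 in pEF, where 22.8% and 24.6% of all genes were called. ADAM28, ADAM33, ADAMTS2, ADAMTS5, ADAMTS6, ADAMTS8, ADAMTS16, ADAMTS17 and ADAMTSL4 did not pass as deposited but were longer in pEF after centring. Without regard to a test, 15 members had both pgEpiSC libraries above both pEF libraries and 18 had the opposite, where 52.3% and 21.9% of all genes did so. Where one type had no island at all, the size of the log2 difference depends on the 1 kb added and is not a measured fold.

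**Figure D2:**
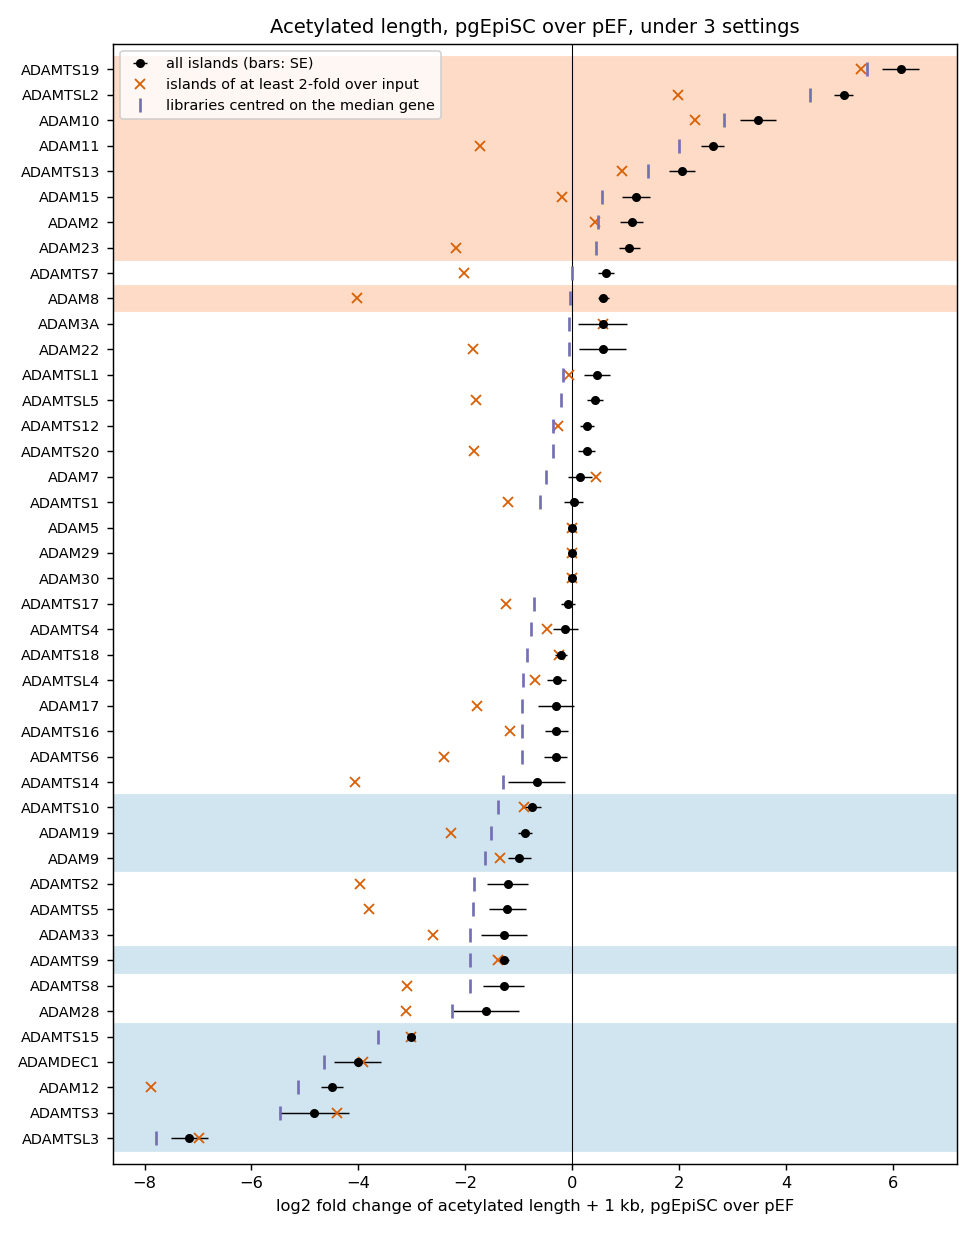
Log2 difference in acetylated length, pgEpiSC over pEF, for the members as deposited, on islands of at least 2-fold over input, and after centring each library on its median gene. Values right of 0 are longer in pgEpiSC. ADAMTS19 and ADAM10 stay right of 0 and ADAM12, ADAMTSL3, ADAMTS3, ADAMDEC1 and ADAMTS15 stay left of 0 in all 3 settings. Of the members called longer in pgEpiSC, ADAM8, ADAM11, ADAM15 and ADAM23 cross from right to left on islands of at least 2-fold. Several members that did not pass, among them ADAMTS7 and ADAMTSL5, cross as well.

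Among the 10 membrane ADAMs that carry the catalytic zinc motif in human, 3 were longer in pgEpiSC (ADAM10, ADAM15 and ADAM8), 3 were longer in pEF (ADAM12, ADAM19 and ADAM9) and 4 did not pass, with a median log2 difference of -0.59. ADAM10, the sheddase that makes the ligand-dependent cut in Notch and also cuts cadherins, had 71.9 and 50.9 kb in pgEpiSC, against 6.0 and 3.4 kb in pEF. The libraries of the 2 types did not overlap, and the pEF islands lay in 1 or 2 short stretches where pgEpiSC had 7. Its log2 difference was 3.47 ± 0.34 (SE, limma, adjusted p = 0.0106), and 2.29 on islands of at least 2-fold (adjusted p = 0.0327). The region at an end of ADAM10 that was called in all 4 libraries, 8.2 kb long on chromosome 1, held 42.4 and 41.6 CPM in pgEpiSC (ChIP reads relative to the library's TMM-scaled total over the 20796 regions called in all 4 libraries), against 34.2 and 32.0 in pEF. That region did not differ past the threshold (log2 fold change 0.34, edgeR, adjusted p = 0.235). Enrichment over input at ADAM10 went the other way from length, at 1.89-fold and 1.73-fold in pgEpiSC, against 7.25-fold and 8.87-fold in pEF. The islands in the end region were at 2.37-fold and 2.19-fold in pgEpiSC, against 7.91-fold and 8.87-fold in pEF. Elsewhere in the window, 5 of its 9 regions were called in both pgEpiSC libraries and no pEF library, and 0 the other way round. Whichever library was left out, the limma call at ADAM10 was not reached (adjusted p 0.0505 to 0.0836).

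ADAM17, the sheddase of TNF and of EGF-receptor ligands, did not pass by length as deposited. It had 12.4 and 22.6 kb in pgEpiSC, against 21.6 and 20.2 kb in pEF, and the libraries of the types overlapped. On the log2 scale the difference was -0.30 ± 0.34 (SE, limma, adjusted p = 0.525). On islands of at least 2-fold it was -1.79 (adjusted p = 0.0313), with islands under FDR 1e-10 it was -0.74 (adjusted p = 0.0339), and in the gene body alone -0.64 (adjusted p = 0.0355). A region of 19.4 kb at an end of ADAM17 held 55.6 and 63.0 CPM in pgEpiSC, against 143 and 182 in pEF, a log2 fold change of -1.45 (edgeR, adjusted p = 0.00604).

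ADAM12, a shedding protease of mesenchymal and muscle precursor cells, had the longest acetylation of the family, and nearly all of it was in pEF. It had 12 and 17 kb in pgEpiSC, against 337 and 351 kb in pEF, out of a window of 400 kb on chromosome 14. Islands thus covered a mean of 3.63% of the window in pgEpiSC and 86.0% in pEF, and the libraries of a type lay close to each other. The log2 difference was -4.50 ± 0.20 (SE, limma, adjusted p = 0.00354), and the call held whichever library was left out (adjusted p 0.0156 to 0.0443) and on islands of at least 2-fold (-7.88, adjusted p = 0.0069). The longest single island was 9.0 and 6.0 kb in pgEpiSC, against 64.6 and 98.6 kb in pEF. Enrichment over input was 1.69-fold and 1.51-fold in pgEpiSC, against 6.95-fold and 7.5-fold in pEF. Part of FANK1 also lies in this window, but the share of the gene body of ADAM12 alone was 3.16% and 3.26% in pgEpiSC, against 84.6% and 89.2% in pEF.

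ADAM19, also known as meltrin beta, was marked in both types and over a shorter length in pgEpiSC. It had 49.8 and 56.4 kb in pgEpiSC, against 106 and 91.8 kb in pEF, with no overlap between the types. Its log2 difference was -0.88 ± 0.13 (SE, limma, adjusted p = 0.0218), but the call was not reached whichever library was left out (adjusted p 0.0725 to 0.110) or on islands of at least 2-fold (-2.28, adjusted p = 0.102). A region of 82.8 kb at an end of ADAM19, of which 17.8 kb lay in the window of the gene, held 34.0 and 44.9 CPM in pgEpiSC, against 820 and 669 in pEF, a log2 fold change of -4.24 (edgeR, adjusted p = 0.00131). ADAM9, a widely expressed sheddase, had 15.4 and 13.4 kb in pgEpiSC, against 25.0 and 35.0 kb in pEF, again without overlap. Its log2 difference of -0.99 ± 0.22 (SE, limma, adjusted p = 0.0433) was lost whichever library was left out (adjusted p 0.0640 to 0.208), in the gene body alone (adjusted p = 0.0838) and with islands under FDR 1e-10 (adjusted p = 0.0712). Both regions of ADAM9 tested for reads were higher in pEF.

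ADAM15, a disintegrin of epithelial and endothelial cells, had 14.9 and 14.6 kb in pgEpiSC, against 7.4 and 4.6 kb in pEF. ADAM8, a sheddase of myeloid cells, had 22.6 and 24.2 kb in pgEpiSC, against 14.4 and 16.2 kb in pEF. The libraries did not overlap at either gene, and both lie close to other genes, ADAM15 to EFNA4 and DCST1 and ADAM8 to TUBGCP2. The log2 differences were 1.20 ± 0.27 at ADAM15 (SE, limma, adjusted p = 0.0461) and 0.58 ± 0.11 at ADAM8 (SE, limma, adjusted p = 0.0318). Both calls changed when weak islands were left out: on islands of at least 2-fold ADAM8 was longer in pEF (-4.02, adjusted p = 0.0070) and ADAM15 did not pass (-0.20, adjusted p = 0.710), and neither passed after centring, with islands under FDR 1e-10 or with any library left out. None of the 4 regions tested for reads at these 2 genes passed. ADAM28, an ADAM of lymphocytes, had 14.4 and 5.6 kb in pgEpiSC, against 21.2 and 41.9 kb in pEF, and ADAM33, linked to asthma in human, had 3.6 and 8.2 kb in pgEpiSC, against 14.5 and 15.1 kb in pEF. Both were shorter in both pgEpiSC libraries without passing the threshold (log2 differences -1.61 and -1.28, limma, adjusted p 0.132 and 0.0984). ADAM33 passed with islands under FDR 1e-10 and both passed after centring. In the gene body alone neither passed, at -2.59 for ADAM28 and -0.32 for ADAM33 (limma, adjusted p 0.210 and 0.712). SIGLEC1 and GFRA4 lie at least partly in the ADAM33 window.

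**Figure D3:**
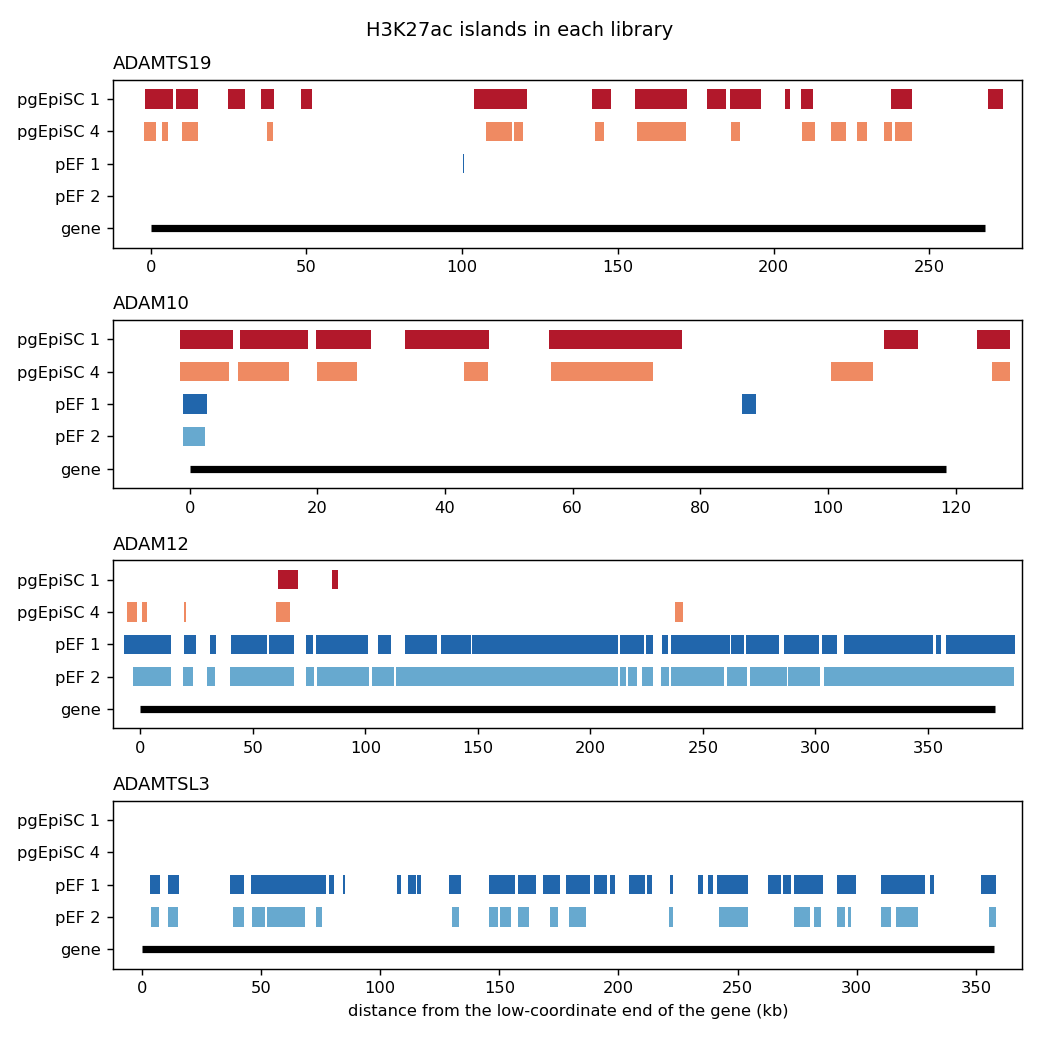
Islands of each library along ADAMTS19, ADAM10, ADAM12 and ADAMTSL3, drawn against the distance in kb from the gene end with the lower coordinate, pgEpiSC libraries above pEF libraries. ADAM12 is covered almost throughout in both pEF libraries. In pgEpiSC 1 and pgEpiSC 4, islands cover 55.1% and 39.4% of the gene body of ADAM10 and 36.0% and 24.0% of that of ADAMTS19.

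The 6 membrane ADAMs without the zinc motif in human are proteins of adhesion, and 3 of them were longer in pgEpiSC (ADAM11, ADAM2 and ADAM23), 0 in pEF, and 3 did not pass; their median log2 difference was 0.82. ADAM11, a protein of neuronal synapses, had 17.8 and 20.8 kb in pgEpiSC, against 2.6 and 2.0 kb in pEF. ADAM23, which binds the secreted LGI proteins in the brain, had 36.6 and 27 kb in pgEpiSC, against 15.2 and 13.8 kb in pEF. ADAM2, the fertilin beta of sperm, had only 1.6 and 0.8 kb in pgEpiSC, against none in pEF. The types did not overlap at any of the 3. Log2 differences were 2.62 ± 0.21 at ADAM11, 1.07 ± 0.19 at ADAM23 and 1.11 ± 0.21 at ADAM2 (SE, limma, adjusted p 0.00762, 0.0305 and 0.0341).

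All 3 calls changed when weak islands were left out. On islands of at least 2-fold the direction turned at ADAM11 (-1.72, adjusted p = 0.00957) and at ADAM23 (-2.17, adjusted p = 0.0379), and ADAM2 did not pass (adjusted p = 0.453); ADAM23 and ADAM2 did not pass after centring either. ADAM11 did not pass without pgEpiSC 1 or pgEpiSC 4 (adjusted p up to 0.0569) or with islands under FDR 1e-10 (0.0626), ADAM2 without pEF 1 or pEF 2 (up to 0.172), and ADAM23 with any library left out (0.0623 to 0.156). ADAM7, ADAM22 and ADAM29 did not pass. ADAM22, which like ADAM23 binds LGI proteins, had 18.3 and 18.2 kb in pgEpiSC, against 8.0 and 17.8 kb in pEF, and the low library was pEF 1. ADAM7, known from the epididymis, had 8.4 and 7.4 kb in pgEpiSC, against 6.0 and 8.21 kb in pEF, which overlapped. In reads, a 14.2 kb region at an end of ADAM22 held 38.2 and 37.1 CPM in pgEpiSC, against 9.65 and 14.8 in pEF (log2 fold change 1.62, edgeR, adjusted p = 0.0123). ADAM3A and ADAM5, which were in no list, had at most 1.2 kb in any library.

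ADAMDEC1, a short secreted relative known from gut macrophages, was without islands in pgEpiSC and had 10.2 and 22.2 kb in pEF. On the log2 scale the difference was -4.01 ± 0.44 (SE, limma, adjusted p = 0.0126). It held on islands of at least 2-fold (adjusted p = 0.0197) and was not reached without either pgEpiSC library (adjusted p up to 0.104). ADAMDEC1 lies beside ADAM28 and ADAM7 on chromosome 14, and the windows shared 2.66 kb with ADAM28 and 18.9 kb with ADAM7, so their lengths are in part the same islands.

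Of the 7 ADAMTS proteoglycanases, enzymes that cut aggrecan or versican, 0 were longer in pgEpiSC, 2 were longer in pEF (ADAMTS15 and ADAMTS9) and 5 did not pass, with a median log2 difference of -1.22. ADAMTS9, a versicanase also needed for primary cilia, had 13.8 and 12.2 kb in pgEpiSC, against 32.4 and 34.0 kb in pEF. ADAMTS15 was without islands in pgEpiSC, against 7.15 and 6.95 kb in pEF, of which 1.87 and 1.27 kb lay in the gene body. The types did not overlap at either gene and the libraries of each type were close together. The log2 differences were -1.29 ± 0.10 at ADAMTS9 (SE, limma, adjusted p = 0.00768) and -3.01 ± 0.07 at ADAMTS15 (SE, limma, adjusted p = 0.0029). Both held on islands of at least 2-fold. With 1 library left out, the log2 difference was -3.03 to -2.99 at ADAMTS15 and -1.37 to -1.20 at ADAMTS9. The ADAMTS9 call was not reached without pgEpiSC 4, pEF 1 or pEF 2. At ADAMTS15 both pgEpiSC values were 0, so that type added no spread to the test, and its small SE carries that floor.

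ADAMTS5, the main aggrecanase of mouse cartilage, had 5.2 and 4.8 kb in pgEpiSC, against 9.6 and 17.3 kb in pEF. It lay in one direction without passing as deposited (log2 difference -1.22 ± 0.35, SE, limma, adjusted p = 0.0750), and passed on islands of at least 2-fold (-3.80, adjusted p = 0.0184). A region of 11.8 kb at an end of ADAMTS5 held 8.35 and 7.24 CPM in pgEpiSC, against 48.5 and 140 in pEF, although the 2 pEF libraries themselves differed (log2 fold change -3.59, edgeR, adjusted p = 0.00705). ADAMTS8, which shares 5.55 kb of window with ADAMTS15 on chromosome 9, had 5.89 and 6.2 kb in pgEpiSC, against 22.4 and 11.6 kb in pEF (log2 difference -1.29 ± 0.38, SE, limma, adjusted p = 0.0788). After centring ADAMTS8 was longer in pEF (-1.92, limma, adjusted p = 0.0109).

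ADAMTS1, a proteoglycanase with roles in ovulation in the mouse, was covered over a similar length in both types. It had 5.0 and 4.4 kb in pgEpiSC, against 4.6 kb in each pEF library. The log2 difference was 0.02 ± 0.18 (SE, limma, adjusted p = 0.956), and the one region called there, 5.4 kb at a gene end, held 19.1 and 17.4 CPM in pgEpiSC, against 15.4 and 20.9 in pEF (log2 fold change 0.01, edgeR, adjusted p = 0.982). Enrichment over input there was 2.32-fold and 1.78-fold in pgEpiSC, against 2.91-fold and 4.57-fold in pEF. On islands of at least 2-fold, ADAMTS1 had 5 and 0 kb in pgEpiSC, against 4.6 kb in each pEF library. A p that misses the threshold does not show that the 2 types were the same. ADAMTS4, an aggrecanase, had 18.6 and 12.4 kb in pgEpiSC, against 16.8 kb in each pEF library, and ADAMTS20, a versicanase of melanocyte development in the mouse, had 22.0 and 17.0 kb in pgEpiSC, against 15.8 and 16.0 kb in pEF. Neither passed, with log2 differences of -0.13 and 0.27.

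Among the 3 procollagen N-propeptidases, which remove the amino-terminal propeptide of fibrillar procollagens, ADAMTS3 was longer in pEF and ADAMTS2 and ADAMTS14 did not pass. ADAMTS3, which also activates the lymphatic growth factor VEGFC, had 0 kb in pgEpiSC 1 and 1.2 kb in pgEpiSC 4, against 60.4 and 27.8 kb in pEF. Both pEF libraries stood far above both pgEpiSC libraries, but differed from each other by more than 2-fold. Its log2 difference was -4.83 ± 0.65 (SE, limma, adjusted p = 0.0178); it was not reached whichever library was left out (adjusted p 0.0752 to 0.0989). ADAMTS2, the enzyme whose loss gives a skin fragility syndrome in cattle and human, had 24.6 and 27.8 kb in pgEpiSC, against 85.5 and 44.3 kb in pEF. Its log2 difference of -1.21 ± 0.38 (SE, limma, adjusted p = 0.0923) did not pass as deposited. ADAMTS14 had 9.4 and 24.8 kb in pgEpiSC, against 25.0 kb in each pEF library, so that pgEpiSC 1 stood apart. On islands of at least 2-fold all 3 were longer in pEF: -4.39 at ADAMTS3 (adjusted p = 0.0304), -3.97 at ADAMTS2 (adjusted p = 0.0119) and -4.07 at ADAMTS14 (adjusted p = 0.0320). At ADAMTS14 that cut left 0 and 1.4 kb in pgEpiSC and did not shorten pEF. A region of 33.0 kb inside ADAMTS2 held 10.4 and 12.1 CPM in pgEpiSC, against 267 and 100 in pEF (log2 fold change -4.03, edgeR, adjusted p = 0.00452). A region of 19.8 kb at an end of ADAMTS14 held 16.3 and 16.7 CPM in pgEpiSC, against 112 and 172 in pEF (log2 fold change -3.10, edgeR, adjusted p = 0.00205).

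ADAMTS12, which with ADAMTS7 cuts the cartilage oligomeric matrix protein COMP, had 36.4 and 41.8 kb in pgEpiSC, against 29.8 and 34.4 kb in pEF. Both pgEpiSC libraries were above both pEF libraries by a small margin, and the log2 difference of 0.28 ± 0.13 did not pass (SE, limma, adjusted p = 0.186), though it did with islands under FDR 1e-10 (0.42, adjusted p = 0.0429). A similar total was laid out differently, in 4 and 6 islands in pgEpiSC and in 11 and 14 in pEF, with the longest at 15.8 and 17.8 kb in pgEpiSC, against 6.8 and 4.2 kb in pEF. ADAMTS7, linked to coronary disease in human, had 26.0 and 33.0 kb in pgEpiSC, against 18.8 and 18.2 kb in pEF. It stayed just short of the threshold in favour of pgEpiSC (0.64, limma, adjusted p = 0.0519) and was longer in pEF on islands of at least 2-fold (-2.02, adjusted p = 0.0181).

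ADAMTS10 and ADAMTS6 are homologues linked to fibrillin microfibrils. The gene body of ADAMTS10 held 5.37 and 2.17 kb in pgEpiSC, against 6.37 and 10.6 kb in pEF. Over its whole window, in which MYO1F lies at least partly, ADAMTS10 had 17.97 and 14.4 kb in pgEpiSC, against 25.4 and 30.6 kb in pEF, without overlap. On the log2 scale the difference was -0.76 ± 0.18 (SE, limma, adjusted p = 0.0495), and it was not reached whichever library was left out (adjusted p 0.117 to 0.189) or in the gene body alone (adjusted p = 0.253). ADAMTS6 had 59.2 and 54.2 kb in pgEpiSC, against 83.7 and 59.5 kb in pEF, which did not pass (-0.31 ± 0.21, SE, limma, adjusted p = 0.326). After centring ADAMTS6 was longer in pEF (-0.94, limma, adjusted p = 0.0213). Different stretches of ADAMTS6 went opposite ways. A merged region of 5.6 kb at one gene end held 10.1 and 12.6 CPM in pgEpiSC, against 4.56 and 4.36 in pEF (log2 fold change 1.35, edgeR, adjusted p = 0.0213). Its pEF islands did not come within 2 kb of a gene end. A region of 37.0 kb inside the gene held 15.8 and 10.3 in pgEpiSC, against 324 and 281 in pEF (log2 fold change -4.54, edgeR, adjusted p = 0.00135). ADAMTS6 was the 1 member with regions called in each direction.

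ADAMTS13, the plasma protease that cuts von Willebrand factor, had 24.4 and 31.9 kb in pgEpiSC, against 7.12 and 5.0 kb in pEF, without overlap. Its log2 difference was 2.05 ± 0.25 (SE, limma, adjusted p = 0.0151), but it was not reached on islands of at least 2-fold (0.94, adjusted p = 0.144) or with any library left out (adjusted p 0.0624 to 0.0980). Its window also holds parts of REXO4, CACFD1 and SLC2A6, and none of its 3 tested regions passed.

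ADAMTS19 was the member with the largest difference in favour of pgEpiSC, and the 1 member of ADAMTS16 to ADAMTS19 that passed. ADAMTS19, whose loss in human gives heart valve disease, had 103 and 66.4 kb in pgEpiSC, against 0.4 kb in pEF 1 and no island in pEF 2. Thus 15 and 14 islands in the pgEpiSC libraries stood against 1 island in the pEF libraries, in a window of 288 kb on chromosome 2 that also holds part of KIAA1024L. The log2 difference was 6.14 ± 0.34 (SE, limma, adjusted p = 0.00477). The call held whichever library was left out (adjusted p 0.0427 to 0.0450), after centring (5.51) and on islands of at least 2-fold (5.40, adjusted p = 0.0073). ADAMTS17 was long in both types, with 126 and 138 kb in pgEpiSC and 139.6 and 139 kb in pEF (-0.08, limma, adjusted p = 0.645), yet 5 of its 8 regions tested for reads were higher in pEF. After centring ADAMTS17 was longer in pEF (-0.71, limma, adjusted p = 0.0139). ADAMTS16 had 32.2 and 37.9 kb in pgEpiSC, against 36.8 and 51.0 kb in pEF, and ADAMTS18 had at most 0.6 kb in any library. Neither passed as deposited, and ADAMTS16 was longer in pEF after centring (-0.93, limma, adjusted p = 0.0305).

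The 5 ADAMTSL proteins, matrix proteins without a protease domain, held both an extreme in favour of pgEpiSC and the extreme in favour of pEF. ADAMTSL3 had no island in pgEpiSC, against 188 and 107 kb in pEF, in a window of 378 kb on chromosome 7 that also holds part of SAXO2. The islands numbered 29 and 21 in pEF, so the mark was spread in many pieces, the longest 31.8 and 16.2 kb. Its log2 difference of -7.16 ± 0.34 was the lowest of the family (SE, limma, adjusted p = 0.00381); without pgEpiSC 1 or pgEpiSC 4 the call was not reached (adjusted p up to 0.0560). ADAMTSL2, which binds microfibrils and latent TGF-beta binding protein, had 31.2 and 34.2 kb in pgEpiSC, against none in pEF. Its log2 difference was 5.07 ± 0.17 (SE, limma, adjusted p = 0.0029), and 5.01 to 5.14 with 1 library left out. Both pEF values were 0, so pEF added no spread to this test. The ADAMTSL2 islands were weak, 1.83-fold and 1.60-fold over input, and on islands of at least 2-fold the call was lost (1.98, adjusted p = 0.453). Parts of MYMK and FAM163B lie in the ADAMTSL2 window; in the gene body alone the log2 difference was 4.45 (adjusted p = 0.00212).

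ADAMTSL1, ADAMTSL4 and ADAMTSL5 did not pass, though ADAMTSL5 was longer in pEF on islands of at least 2-fold (-1.81, adjusted p = 0.00662) and longer in pgEpiSC in the gene body alone (1.13, adjusted p = 0.0192). ADAMTSL4 was longer in pEF after centring (-0.93, limma, adjusted p = 0.0170). ADAMTSL1 had 75.6 and 105 kb in pgEpiSC, against 57.8 and 71.4 kb in pEF, ADAMTSL4 had 20.6 and 23.0 kb in pgEpiSC, against 30.6 and 23.6 kb in pEF, and ADAMTSL5 had 3.4 and 4.0 kb in pgEpiSC, against 2.6 and 2.4 kb in pEF. A region of 12.4 kb inside ADAMTSL1 held 54.9 and 57.3 CPM in pgEpiSC, against 14.8 and 17.1 in pEF (log2 fold change 1.81, edgeR, adjusted p = 0.00398). At ADAMTSL4, which is linked to lens dislocation in human, a region of 51.2 kb, of which 31.4 kb lay in the window of the gene, held 224 and 221 CPM in pgEpiSC, against 750 and 781 in pEF (log2 fold change -1.78, edgeR, adjusted p = 0.00227), and the acetylated length, taken within the window alone, did not pass (-0.29, limma, adjusted p = 0.262).

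The ends of genes, one of which is the start of transcription, were then examined within 2 kb on either side, since the gene table used here has no strand. Of the 43 members, 3 had an end island in both pgEpiSC libraries and no pEF library: ADAMTS19, ADAMTSL2 and ADAMTS6. Over all genes 7.31% were of that kind. For 6 members the end islands were in both pEF libraries and no pgEpiSC library: ADAMTS9, ADAMTS8, ADAMTS15, ADAMDEC1, ADAMTS3 and ADAMTSL3, where 4.47% of all genes were of that kind. A further 23 members had an end island in all 4 libraries (67.8% of all genes), 5 in none (10.1%) and 6 in other combinations (10.3%). ADAM12 was in the last class and ADAM10 in the class with end islands in all 4 libraries. ADAMTS19 kept its class under windows of 1 kb and 5 kb, on islands of at least 2-fold or under FDR 1e-10 and whichever library was left out, as did ADAMTS15, ADAMDEC1, ADAMTS3 and ADAMTSL3, while ADAMTSL2, ADAMTS6, ADAMTS8 and ADAMTS9 each left theirs in at least 1 of these settings.

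Reads inside islands gave a second measure where all 4 libraries had one. The member windows held 324 merged regions, of which 58, over 29 members, were called in all 4 libraries and could be tested. Of these, 5 were higher in pgEpiSC, where 22.6% of all 20796 such regions were called, and 24 were higher in pEF, where 23.3% were called. The other 29 did not pass, and the median log2 fold change was -0.69 for the 58 member regions and -0.0043 for all regions. Regions higher in pEF lay at 14 members and regions higher in pgEpiSC at 5: ADAMTS19, ADAMTSL1, ADAM22, ADAMTS6 and ADAMTS12. A region was counted whole wherever it touched a window: 15 of the 58 reached beyond it, 10 of them among those called. The ADAMTS19 region, 13.6 kb long, had only 0.116 kb in the window, and its pEF islands lay outside the window. The remaining regions were not tested, among them 60 called in both pgEpiSC libraries only and 86 called in both pEF libraries only. Of those 60, 44 lay inside the gene and 8 at a gene end, and of those 86, 68 lay inside the gene and 11 at a gene end. Of the 58 shared regions, 20 lay inside the gene and 30 at a gene end. The shares of such regions and places over all genes were not counted. These counts are therefore not read as a result about the family.

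**Figure D4:**
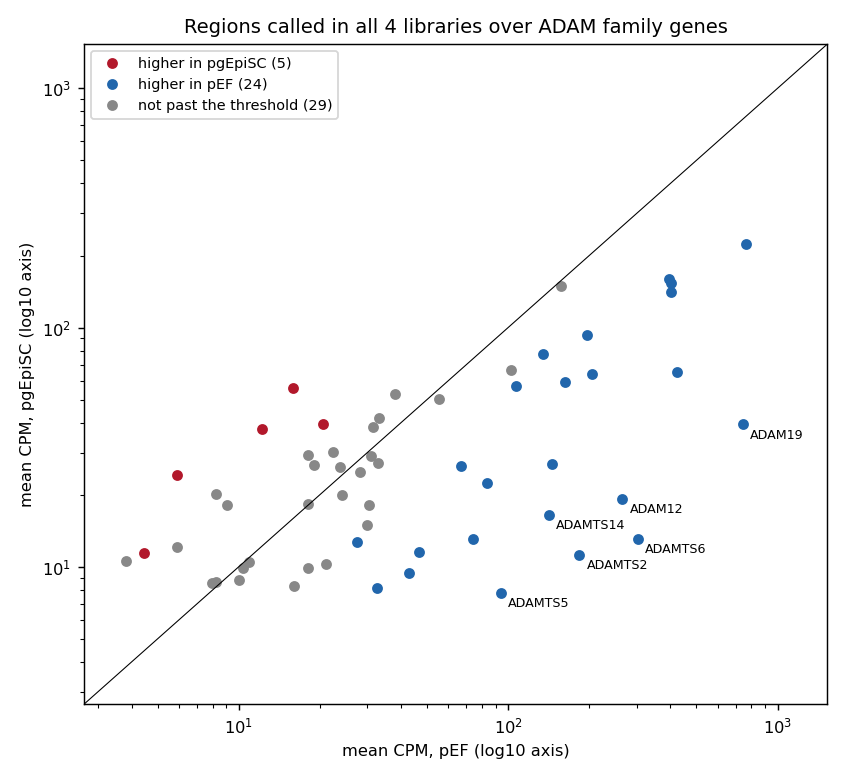
Mean CPM (ChIP reads relative to the TMM-scaled total over regions called in all libraries) in pgEpiSC (vertical, log scale) against pEF (horizontal, log scale) for the 58 member regions called in all 4 libraries, marked by their call. The 24 regions higher in pEF lie below the diagonal and the 5 higher in pgEpiSC above it.

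Genes that act with the family were read from lists of their inhibitors, activators and substrates. Their counts stand against the same shares of all genes, 31.9% longer in pgEpiSC and 10.9% longer in pEF. Of 6 metalloprotease inhibitors, 0 were longer in pgEpiSC, 2 were longer in pEF and 4 did not pass. TIMP3, the matrix-bound inhibitor of ADAM17 and several ADAMTS enzymes, had 4.0 and 4.2 kb in pgEpiSC, against 26.0 and 18.8 kb in pEF (log2 difference -2.18, limma, adjusted p = 0.0109). A2M, a plasma protease trap, had no island in pgEpiSC, against 7.2 and 18.8 kb in pEF (-3.67, limma, adjusted p = 0.0195). Both held on islands of at least 2-fold and both could be lost without 1 library (adjusted p up to 0.0862 at TIMP3 and 0.135 at A2M).

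Of 13 genes for the maturation of ADAM10 and ADAM17 and proprotein convertases, 4 were longer in pgEpiSC (RHBDF2, TSPAN10, TSPAN33 and FURIN), 0 in pEF and 9 did not pass. The count of 4 was close to the 31.9% of all genes longer in pgEpiSC. TSPAN10, a tetraspanin partner of ADAM10, had 16.6 and 16.4 kb in pgEpiSC, against 4.6 and 4.0 kb in pEF (1.73, limma, adjusted p = 0.00907). RHBDF2, the iRhom that carries ADAM17 to the surface, had 28.9 and 31.7 kb in pgEpiSC, against 7.2 and 10.8 kb in pEF (1.67, limma, adjusted p = 0.0188). Both calls were lost on islands of at least 2-fold and without some single libraries (adjusted p up to 0.0604 at TSPAN10 and 0.130 at RHBDF2). On islands of at least 2-fold 1 of the 13 was longer in pgEpiSC and 2 in pEF, where 7.07% and 16.5% of all genes were called. After centring 3 were longer in pgEpiSC and 2 in pEF, where 22.8% and 24.6% of all genes were called. FURIN then did not pass (0.46, limma, adjusted p = 0.120).

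Of 19 shed membrane substrates, 6 were longer in pgEpiSC, 6 were longer in pEF and 7 did not pass. The share longer in pgEpiSC was close to the 31.9% of all genes. After centring 5 of the 19 were longer in pgEpiSC and 9 in pEF, where 22.8% and 24.6% of all genes were called. The EGF-receptor ligands were on both sides. TGFA had 74.0 and 57.6 kb in pgEpiSC, against 2.6 kb in each pEF library (4.20, limma, adjusted p = 0.00299), though it did not pass on islands of at least 2-fold (1.21, adjusted p = 0.513). BTC, betacellulin, had 0 kb in pgEpiSC 1 and 2.08 kb in pgEpiSC 4, against 18 and 22.9 kb in pEF (-3.60, limma, adjusted p = 0.0337), with an adjusted p up to 0.171 without 1 library.

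Among the matrix substrates, 1 of 6 proteoglycans passed. It was ACAN, aggrecan, with 11.4 and 9.2 kb in pgEpiSC, against 0.4 and 0.8 kb in pEF (2.82, limma, adjusted p = 0.0077), and it did not pass on islands of at least 2-fold or without some single libraries (adjusted p up to 0.0594). Of 9 procollagens and their other processing factors, 3 were longer in pgEpiSC (TLL1, TLL2 and PCOLCE2) and 3 in pEF (COL1A1, COL1A2 and COL3A1). All of these calls held on islands of at least 2-fold. After centring PCOLCE2 did not pass (0.34, limma, adjusted p = 0.313) and the others did. The calls at PCOLCE2, TLL2 and COL1A1 could be lost without 1 library. COL3A1 and COL1A2, chains of procollagens cut by the N-propeptidases, were both without islands in pgEpiSC. In pEF, COL3A1 had 50.3 and 54.1 kb and COL1A2 had 50.1 and 48.7 kb, log2 differences of -5.73 and -5.66 (limma, adjusted p = 0.0029 at each). Of 6 microfibril partners, 0 were longer in pgEpiSC, 2 were longer in pEF and 4 did not pass. FBN1, fibrillin 1, had 21.4 and 22.8 kb in pgEpiSC, against 233 and 247 kb in pEF (-3.38, limma, adjusted p = 0.0029), and LTBP2, a fibrillin-binding protein, had 45.0 and 44.4 kb in pgEpiSC, against 93.6 and 88.4 kb in pEF (-1.01, limma, adjusted p = 0.00792, up to 0.0626 without 1 library).

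Of 20 matrix metalloproteinases, the other large family of matrix proteases, 3 were longer in pgEpiSC, 1 was longer in pEF and 16 did not pass. After centring 1 of the 20 was longer in pgEpiSC and 5 in pEF, where 22.8% and 24.6% of all genes were called. MMP3, stromelysin 1, had 4.2 and 6.6 kb in pgEpiSC, against none in pEF (2.65, limma, adjusted p = 0.00846). MMP20, the enamel protease, had no island in pgEpiSC, against 5.0 and 8.6 kb in pEF (-2.92, limma, adjusted p = 0.00998). Both held on islands of at least 2-fold, and both were lost without 1 library (adjusted p up to 0.0734 at MMP3 and 0.0931 at MMP20).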

How the data were processed

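H3K27ac ChIP-seq of pig pgEpiSC (libraries 1 and 4) and pEF (libraries 1 and 2) was read from 4 deposited island lists, and the 4 input libraries enter as the control reads of each island. Per the labels, fragments of 200 to 500 bp were sequenced as 150 bp paired-end reads, on average 121 M per library, of which 116 M were of high quality. BWA 0.7.15, SAMtools 0.1.19 and SICER 1.1 are named per the submitters' processing notes. The deposited count columns hold ChIP and input reads per island, the deposited p-value columns an island's p and FDR, and the deposited fold is the ratio of ChIP to input scaled by library size. The authors' duplicate filter is not given in the sources used here, nor is the build. Gene positions came from the RefSeq Sscrofa11.1 table: on 19 of 19 chromosomes more gene ends than points shifted by 20 kb fell in islands. Of symbols at 2 loci (17, none a member), the longer gene was kept. The table has no strand, so both gene ends replaced the planned transcription starts, and the planned promoter letters were not analysed here.

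Members, lists and tests were chosen with earlier results of these data known. Acetylated length was tested with limma 3.58.1 (trend, log2(kb + 1), 2 residual degrees of freedom) over all genes. ChIP reads in regions merged at an overlap of 1 bp were tested with edgeR 4.0.16 (quasi-likelihood, TMM factors 1.08, 1.08, 0.939 and 0.909 in the order pgEpiSC 1, pgEpiSC 4, pEF 1, pEF 2) over regions called in all 4 libraries. These reads count only what lies in a library's own islands, so a fold also carries island length, and a region that touched a window was counted whole. Adjustment was Benjamini-Hochberg at 0.05. Values per library are given for up to 8 members per direction with the largest difference, members with end islands in 1 type only and 9 members whatever their result, and from each other list up to 2 genes with the largest difference past the threshold. Values of the other members were added after they were seen. ADAM18, ADAM20, ADAM21, ADAM32, ADAMTSL6, NOTCH1, MMP10, MMP21, MMP26 and KRT14 of the lists had no match. Both fits were tested on simulated data. Alternatives were a pseudocount of 0.2 kb, a mean of at least 1 kb, the gene body alone, islands of at least 2-fold or under FDR 1e-10, centring (shift 0.63 log2), no trend, DESeq2 1.42.0, DESeq2's size factors in edgeR, at least 100 reads, an overlap of 200 bp, end windows of 1 and 5 kb, and each library left out. One marker of another cell type is not reported here.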

Additional observations from a re-analysis of the deposited data

How the results depend on the processing

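No paired analysis was possible because the types share only replicate number 1. The counts of members longer in pgEpiSC and in pEF, 9 and 9 as reported, were 2 and 17 on islands of at least 2-fold and 5 and 18 after centring. Both counts were lower with any 1 library left out, as were the counts over all genes. Over all genes, 5200 and 1773 became 1152 and 2691 on islands of at least 2-fold and 3583 and 3855 after centring. Member regions higher in pgEpiSC and in pEF, 5 and 24 as reported, were 2 and 11 of 24 on islands of at least 2-fold, and 1 to 7 and 13 to 25 without 1 library; DESeq2 gave 7 and 24. Members with end islands in pgEpiSC only and in pEF only, 3 and 6 as reported, were 1 and 14 on islands of at least 2-fold, 1 and 8 with islands under FDR 1e-10, and 3 to 4 and 6 to 9 without 1 library. The shares of all genes with such end islands were not counted in these other settings. Those member counts are therefore not read as a result about the family. On islands of at least 2-fold the log2 difference turned to -1.72 at ADAM11, -0.20 at ADAM15 and -2.17 at ADAM23, and ADAM8 turned too (-4.02). The cause of these shifts was not tested. With a pseudocount of 0.2 kb the calls at ADAM15 and ADAMTS10 were lost, and without a trend those at ADAM9 and ADAMTS10. With 2 libraries a type, leaving 1 out leaves a lone library that is assumed to vary like the other type. Where the other type had no island in either library, it had no measured spread to lend. Weak islands in pgEpiSC and stronger ones in pEF limit what lengths can compare.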
